A study of Mus musculus with 6 samples.

Results

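To study how activation of the dopamine D2 receptor (DRD2) changes the genes that make, recycle and use glutathione (GSH) in astrocytes, 10 genes were followed through an RNA sequencing data set of 17193 genes. They were named by their roles in this pathway. *Slc7a11* and *Slc3a2* encode the light and heavy chains of the exchanger that imports cystine. *Gclc*, *Gclm* and *Gss* encode the enzymes of GSH synthesis, and *Gsr* encodes glutathione reductase. *Gpx1*, *Gpx4* and *Gpx8* encode peroxidases, and *Abcc1* encodes an exporter of GSH and its conjugates. Microbeads carrying an antibody to the surface antigen ACSA-2 were used to isolate astrocytes from brains of wild-type C57BL/6 mice aged 3 months. The mice had received saline (labelled Mock) or quinpirole, a DRD2 agonist, with 3 libraries in each group. The dose and duration of quinpirole for these mice are not given in the sources used here. The labels number the libraries but do not say whether each came from its own mouse, so every p-value measures only the spread between these libraries. In such bulk RNA, fewer cells of a type and less RNA per cell cannot be told apart.

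Glutathione is a tripeptide thiol, and astrocytes are its main producers in the brain. Cystine enters the cell in exchange for glutamate and is reduced to cysteine. Glutamate-cysteine ligase, made of a catalytic subunit (GCLC) and a modifier subunit (GCLM), joins cysteine to glutamate in the rate-limiting step, and glutathione synthetase (GSS) then adds glycine. Peroxidases such as GPX1 and GPX4 spend GSH to reduce hydrogen peroxide or lipid peroxides, and glutathione reductase regenerates it from the disulfide with electrons from NADPH. Several of these genes are classical targets of the transcription factor Nrf2, which binds antioxidant response elements (AREs), and *Slc7a11* is also a target of ATF4, which binds amino acid response elements (CAREs).

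The sequences just upstream of the annotated starts were available for 7 of the 10 genes, with 10 starts in all, 4 of them for *Gpx4*. None was available for *Gclc*, *Gsr* and *Abcc1*, so these were not searched for motifs. The 250 bases before the start are shown for *Gss*, the synthesis gene that rose, and for 2 genes that held a searched motif, *Gclm* and *Slc7a11*. They were read from RefSeq on GRCm38.p6 and run 5′ to 3′ on the strand of the gene. *Gss* lies on the minus strand (chr2:155592811-155593060), *Slc7a11* on the minus strand (chr3:50443614-50443863) and *Gclm* on the plus strand (chr3:122245307-122245556). Capitals mark matches on either strand to the ARE core TGACNNNGC or to the CARE TGATGNAA.
Gss: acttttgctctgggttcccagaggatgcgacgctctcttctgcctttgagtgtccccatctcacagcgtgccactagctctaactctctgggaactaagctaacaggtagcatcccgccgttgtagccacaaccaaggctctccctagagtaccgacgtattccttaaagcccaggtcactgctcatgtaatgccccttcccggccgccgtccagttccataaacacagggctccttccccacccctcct
Slc7a11: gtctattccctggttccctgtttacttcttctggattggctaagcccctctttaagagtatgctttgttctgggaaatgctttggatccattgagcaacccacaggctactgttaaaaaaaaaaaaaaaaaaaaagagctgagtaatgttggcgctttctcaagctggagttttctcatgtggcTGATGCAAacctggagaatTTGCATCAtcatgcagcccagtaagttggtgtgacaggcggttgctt
Gclm: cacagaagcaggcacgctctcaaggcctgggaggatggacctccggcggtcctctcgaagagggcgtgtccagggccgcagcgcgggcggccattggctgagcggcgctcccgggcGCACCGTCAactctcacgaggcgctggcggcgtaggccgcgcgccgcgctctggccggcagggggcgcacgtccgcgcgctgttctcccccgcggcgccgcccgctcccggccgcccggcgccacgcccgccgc
The *Gss* window held neither motif. The *Slc7a11* window held 2 CAREs, 66 to 59 and 47 to 40 bases before the start, on opposite strands. The *Gclm* window held 1 ARE core on the strand opposite to the gene, 134 to 126 bases before the start. Among 32851 mouse windows of the same length, 10.2% held the ARE core and 3.50% held the CARE. The windows also differed in composition, with 41 CpG dinucleotides and 78.4% GC for *Gclm*, 10 CpG and 56.0% GC for *Gss*, and 2 CpG and 43.2% GC for *Slc7a11*. A match is a description of the letters, and factor binding was not measured in these libraries.

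Expression is given as FPKM, which scales the fragments of a gene to its transcript length and to the depth of the library, so levels can be set side by side between genes. The peroxidases *Gpx4* and *Gpx1* were by far the most abundant of the 10 transcripts, with means over the 6 libraries of 651 and 462 FPKM, which placed them 53rd and 89th among the 17193 genes. *Slc3a2* (129 FPKM) and *Gpx8* (87.2 FPKM) followed. The synthesis and recycling enzymes were at moderate levels, *Gclc* at 38.5, *Gsr* at 20.2, and *Gss* and *Gclm* both at 17.7 FPKM. *Abcc1* stood at 11.5 FPKM. *Slc7a11* was the lowest, at 0.477 FPKM, 13085th in the same order. *Gss* and *Gclm* exchanged places between groups, since *Gclm* was the higher in every saline library and *Gss* in every quinpirole library.

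After quinpirole, transcripts of GSH synthetase, glutathione reductase and 2 of the 3 peroxidases rose by 14.2% to 20.4% (for *Gpx4* not after quantile normalization, which left a log2 difference of 0.00). Once each library was corrected for gene length, *Gss* alone of the 4 still passed. In the fit to the 6 libraries as deposited, both subunits of glutamate-cysteine ligase stayed within 0.12 on the log2 scale of their saline level at either bound of the 95% interval. Differences were taken on the log2(FPKM + 1) scale, which understates the change of weakly expressed genes, and tested with limma over the 12255 genes with a mean of at least 1 FPKM. Of the 10 genes, 9 passed this filter, and 4 of them (*Gss*, *Gsr*, *Gpx4* and *Gpx8*) were higher after quinpirole at a Benjamini-Hochberg adjusted p under 0.05, while 0 were lower. Among all tested genes 10.9% passed the threshold, 5.74% as higher and 5.18% as lower. The quinpirole libraries lay wholly above the saline libraries for 5 of the 9 genes and wholly below them for 1, against 20.0% and 16.9% of all tested genes. The median log2 difference was 0.19 over the 9 genes and 0.02 over all tested genes. These counts depended on single libraries. When each library was left out in turn, the same 4 genes passed without saline library 3 (1215 genes in all) and 0 passed in the other 5 fits (3 to 210 genes in all), while the log2 differences of the 4 genes stayed between 0.17 and 0.29.

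**Figure D1:**
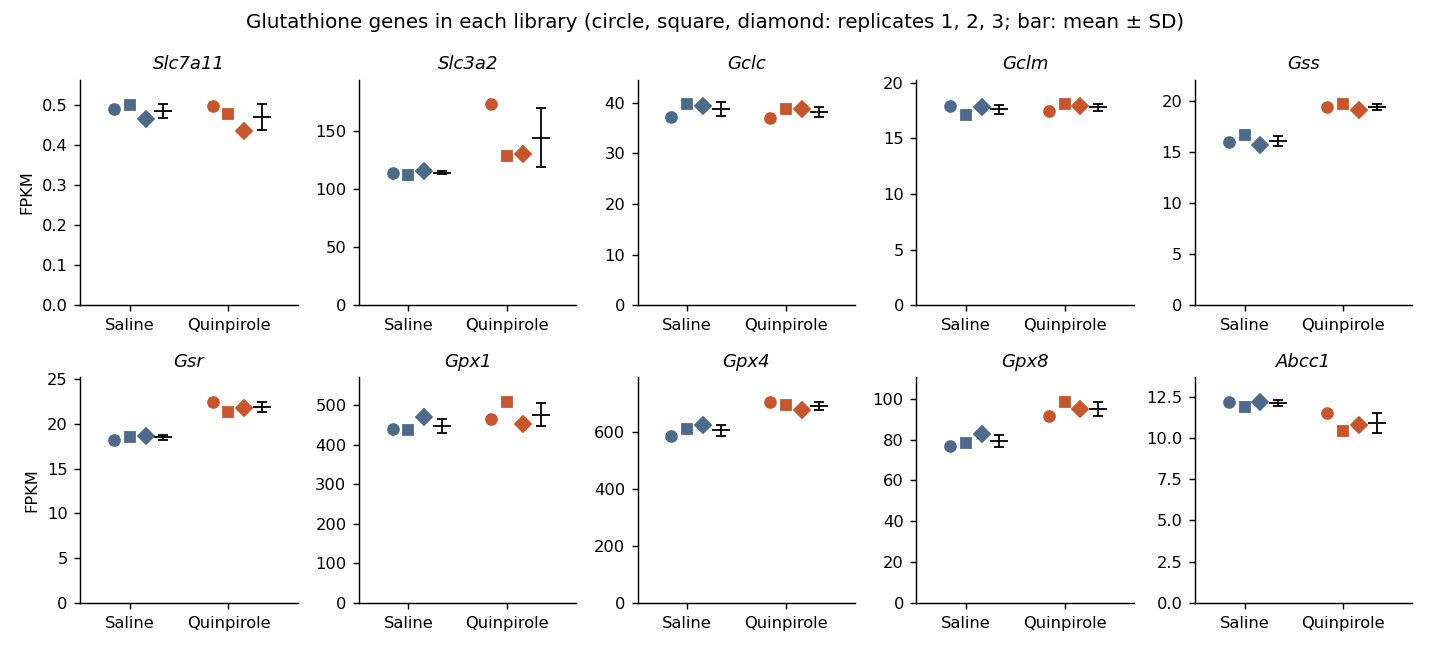
FPKM of the 10 glutathione genes in each library, in 1 panel per gene with an axis from 0, for 3 saline (blue) and 3 quinpirole (orange) libraries, with circle, square and diamond for replicates 1, 2 and 3 and a bar for the mean ± SD. The quinpirole points of *Gss*, *Gsr*, *Gpx4* and *Gpx8* all lie above the saline points, and for *Slc3a2* the first quinpirole library stands at 173 FPKM against 128 and 130.1 in the others.

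Import of cystine was represented by a pair of chains at very different levels. *Slc7a11*, the light chain that carries out the exchange, was at 0.489, 0.50 and 0.466 FPKM in saline libraries 1 to 3 and at 0.498, 0.478 and 0.434 in quinpirole libraries 1 to 3. The groups overlapped, and the estimated 90 to 127 fragments behind each value show that the transcript was detected in every library. It fell under the filter, so it was left out of the limma fit to the filtered genes and entered only the ratio below. Its means of 0.485 ± 0.0171 and 0.470 ± 0.0327 FPKM (SD, n = 3) differed by less than the spread within the quinpirole group. *Slc3a2*, the heavy chain, which also serves other amino acid transporters, was at 114, 112 and 115 FPKM after saline and at 173, 128 and 130.1 after quinpirole. All quinpirole values were above the saline values, with 1 library far above the rest. The log2 difference was 0.32 (SE 0.107, 95% interval 0.07 to 0.57), with a limma adjusted p of 0.0895. Without quinpirole library 1 the difference was 0.18, with an adjusted p of 0.0644. The ratio of *Slc7a11* to *Slc3a2* was 0.00429, 0.00446 and 0.00404 after saline and 0.00288, 0.00373 and 0.00333 after quinpirole, a log2 difference of -0.37 with an exact permutation p of 0.10 (0.15 after adjustment over 3 ratios), the smallest that 3 libraries against 3 allow. This difference was -0.16 (exact permutation p = 0.40) after the correction for gene length described further on and -0.22 (p = 0.20) after quantile normalization.

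The first enzyme of synthesis did not pass the test in either subunit. *Gclc* was at 37.2, 39.8 and 39.4 FPKM after saline and at 37.0, 38.7 and 38.8 after quinpirole. The values interleaved, with a log2 difference of -0.02 (SE 0.042, 95% interval -0.12 to 0.08, limma adjusted p = 0.753). *Gclm*, whose product lowers the amount of glutamate that the catalytic subunit needs, was at 17.9, 17.1 and 17.8 FPKM after saline and at 17.5, 18.1 and 17.9 after quinpirole. Its groups overlapped too, and the log2 difference was 0.02 (SE 0.041, 95% interval -0.08 to 0.12, limma adjusted p = 0.787). The ratio of catalytic to modifier transcript was 2.08, 2.32 and 2.22 after saline and 2.12, 2.14 and 2.17 after quinpirole. This ratio differed by -0.04 on the log2 scale, within the spread between libraries (exact permutation p = 0.50, 0.50 after adjustment). It was -0.11 after the length correction and -0.08 without saline library 1, each with the smallest p that the exact permutation test could give (0.10). The interval of each gene in the fit as deposited held no change beyond 0.12 in either direction. Under other processing the intervals reached further, to -0.16 for *Gclc* after quantile normalization. For *Gclm* they reached 0.15 after the length correction and 0.18 when the replicate number was fitted as well.

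The second enzyme did differ. *Gss* was at 16.0, 16.7 and 15.7 FPKM after saline and at 19.4, 19.7 and 19.1 after quinpirole. The lowest quinpirole value was well above the highest saline value. The means were 16.1 ± 0.510 and 19.4 ± 0.307 FPKM (SD, n = 3), 20.4% higher after quinpirole, with a log2 difference of 0.25 (SE 0.043, 95% interval 0.15 to 0.35, limma adjusted p = 0.0250). The gene (minus strand, chr2:155563181-155592810) shares 1102 exonic bases with *Acss2* and the antisense transcripts *Gssos1* and *Gssos2* on the other strand, and the library kit is not stated to mark strand, so fragments there cannot be assigned to 1 of them.

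The recycling enzyme was also higher after quinpirole. *Gsr* was at 18.2, 18.6 and 18.7 FPKM after saline and at 22.5, 21.3 and 21.8 after quinpirole, without overlap. The means were 18.5 ± 0.261 and 21.9 ± 0.605 FPKM (SD, n = 3), 18.3% higher after quinpirole, with a log2 difference of 0.23 (SE 0.041, 95% interval 0.13 to 0.33, limma adjusted p = 0.0251). Relative to *Gclc* in the same library, *Gsr* stood at 0.490, 0.468 and 0.475 after saline and at 0.609, 0.552 and 0.561 after quinpirole. All 3 quinpirole ratios were above the saline ratios, a log2 difference of 0.26 with an exact permutation p of 0.10 (0.15 after adjustment), again the smallest this design allows.

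The peroxidases split. *Gpx8*, an endoplasmic reticulum enzyme that lacks selenocysteine, was at 76.9, 78.2 and 82.7 FPKM after saline and at 91.6, 98.6 and 95.0 after quinpirole. The groups did not overlap, and the mean rose from 79.3 ± 3.03 to 95.1 ± 3.50 FPKM (SD, n = 3), with a log2 difference of 0.26 (SE 0.044, 95% interval 0.16 to 0.36, limma adjusted p = 0.0250). *Gpx4*, the selenoprotein that reduces lipid hydroperoxides in membranes and restrains ferroptosis, was at 587, 612 and 626 FPKM after saline and at 708, 697 and 679 after quinpirole. It rose by 14.2%, with a log2 difference of 0.19 (SE 0.040, 95% interval 0.10 to 0.28, limma adjusted p = 0.0325), but its difference was 0.00 (adjusted p = 0.987) when the libraries were quantile normalized. Its call was also lost without the filter (adjusted p = 0.0613) and with eBayes without trend (adjusted p = 0.0567). *Gpx4* is also uncertain because 61.7% of the 50-base words of its longest transcript occur in other genes, among them the pseudogene *Gpx4-ps2*. *Gpx1*, the abundant cytosolic selenoprotein that removes hydrogen peroxide, was at 439.7, 436 and 469 FPKM after saline and at 465, 509 and 453 after quinpirole. Its groups overlapped, with a log2 difference of 0.08 (SE 0.054, 95% interval -0.04 to 0.21, limma adjusted p = 0.327) that became -0.08 under quantile normalization.

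The exporter *Abcc1* was at 12.2, 11.9 and 12.2 FPKM after saline and at 11.5, 10.4 and 10.8 after quinpirole. It was the 1 member whose quinpirole values all lay below the saline values, with a mean difference of -9.72%. The log2 difference was -0.14 (SE 0.053, 95% interval -0.26 to -0.01) and did not pass the threshold (limma adjusted p = 0.126).

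The change of a gene was related to its length in these libraries. Over 12223 genes the Spearman correlation between exonic length and the log2 difference was -0.47, a description across genes, which are not independent. The members span this range, from 1048 exonic bases for *Gpx8*, 1441 for *Gpx1* and 1724 for *Gpx4* through 2754 for *Gsr* and 5915 for *Gss* to 15092 for *Abcc1*, with a median of 4521 over all genes tested. These lengths take all annotated exons of a gene together. The longest transcript has 3258 bases for *Gss*, 2673 for *Gsr* and 6792 for *Abcc1*, and the correction was not run with such lengths. When each library was corrected for its trend with exonic length, *Gss* kept its difference, at 0.28 (SE 0.041, limma adjusted p = 0.0314). The difference was 0.16 for *Gsr* (adjusted p = 0.0703), 0.13 for *Gpx8* (adjusted p = 0.0595) and 0.09 for *Gpx4* (adjusted p = 0.134), none past the threshold. *Gpx1* went to -0.03 and *Abcc1* to 0.05, each with the opposite sign to its value before the correction. *Gss* was thus the only member called higher after the correction, against 2.09% of all tested genes. It also passed with length and GC content corrected together (log2 difference 0.27, adjusted p = 0.0394). A real change that goes with length would be removed by the same step.

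**Figure D2:**
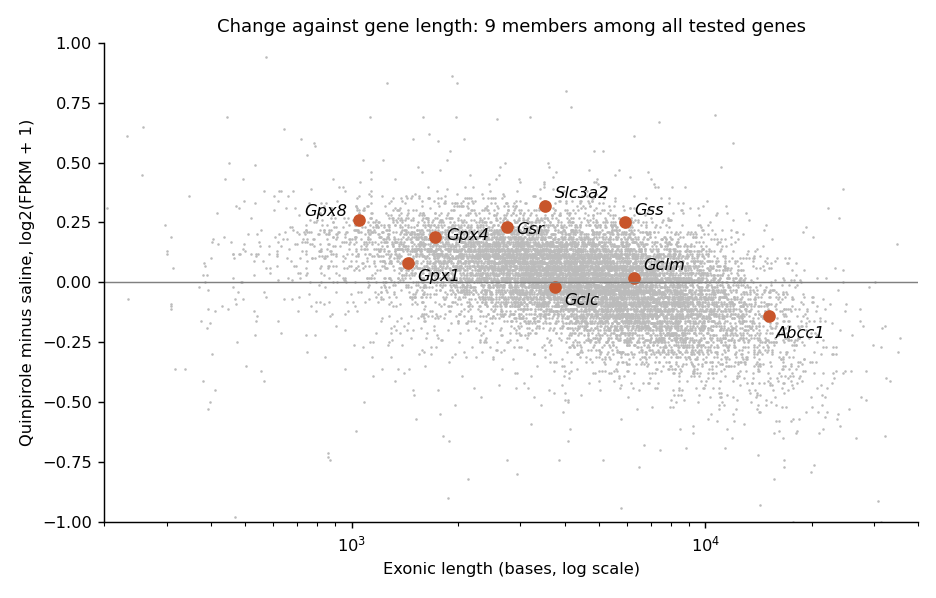
Log2 difference between quinpirole and saline (vertical axis, log2(FPKM + 1)) against exonic length in bases (horizontal axis, log scale) for 12223 tested genes (grey, 24 of them outside the axes) and the 9 tested glutathione genes (orange). Short genes tend to lie above 0 and long genes below it, and *Gss*, with 5915 bases, lies at 0.25.

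**Figure D3:**
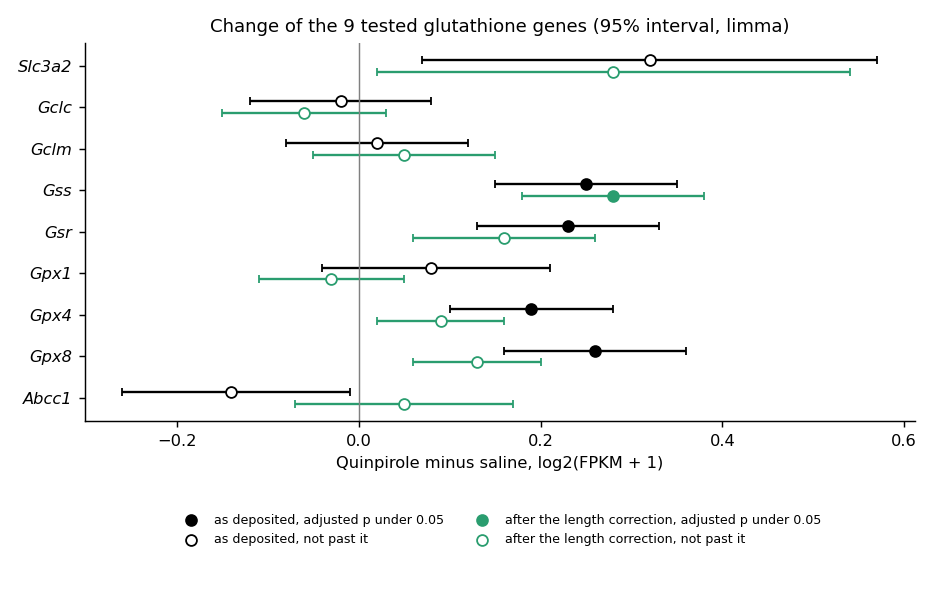
Log2 difference between quinpirole and saline with its 95% interval from limma for the 9 tested glutathione genes, as deposited (black) and after the length correction (green), filled where the adjusted p was under 0.05. As deposited, *Gss*, *Gsr*, *Gpx8* and *Gpx4* (0.00 after quantile normalization, not drawn) are filled, and after the correction *Gss* at 0.28 is the filled point, while the intervals of *Gclc* and *Gclm* include 0 both times.

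Of 61 listed genes for the supply of precursors, breakdown, use and transport of GSH, other glutathione peroxidases, and the making of selenoproteins, 55 had values, 47 were tested, 6 were higher after quinpirole and 1 was lower, against 5.74% and 5.18% of all tested genes. Among 7 tested genes that supply precursors, 0 were higher and 1 was lower (median log2 difference 0.01). *Slc38a1*, a transporter of glutamine and other neutral amino acids, was at 45.0, 46.2 and 44.6 FPKM after saline and at 40.3, 35.5 and 39.3 after quinpirole, and fell by 0.24 on the log2 scale (limma adjusted p = 0.0376), but by only 0.02 after the length correction. *Glul*, the astrocytic glutamine synthetase, was at 353 and 355 FPKM in the group means (log2 difference 0.01, -0.11 after quantile normalization). Of 6 tested breakdown genes and 6 tested transport genes, 0 passed the threshold in either direction, with medians of 0.04 and -0.01.

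The calls in the other lists were in the higher direction, in which 5.74% of all tested genes were called. Among 8 genes that use GSH, 2 passed (median 0.15). These were the glutaredoxins *Glrx*, which removes glutathione from protein thiols (14.1, 14.7 and 15.2 FPKM after saline, 17.2, 19.2 and 17.2 after quinpirole, limma adjusted p = 0.0347), and *Glrx3*, which takes part in iron-sulfur cluster trafficking (67.0, 64.3 and 66.9 FPKM, then 78.3, 78.4 and 72.4, adjusted p = 0.0339). Of 2 other peroxidases tested 1 passed (median -0.18). *Gpx7*, which like *Gpx8* acts in the endoplasmic reticulum, rose from 14.2 ± 0.16 to 17.4 ± 1.16 FPKM (SD, n = 3, limma adjusted p = 0.0297). *Gpx3*, the secreted peroxidase, was at 105 to 109 FPKM in the saline libraries but at 46.8, 124 and 53.6 in the quinpirole libraries. Its quinpirole libraries disagreed among themselves, and the log2 difference of -0.64 (SE 0.319) did not pass the threshold (limma adjusted p = 0.213). It passed without quinpirole library 2 (log2 difference -1.07, adjusted p = 0.00721), and without quinpirole library 1 it was -0.38.

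In selenoprotein synthesis 1 of 7 tested genes passed (median 0.11). *Pstk*, the kinase that prepares the transfer RNA for selenocysteine, rose from 7.25 ± 0.451 to 9.54 ± 0.774 FPKM (SD, n = 3, log2 difference 0.35, limma adjusted p = 0.0323), the lowest quinpirole value of 8.64 lying above the highest saline value of 7.61. Among 11 other selenoprotein genes 2 passed (median 0.15). *Selenow* was at 394, 421 and 435 FPKM and then at 459, 493 and 487 (log2 difference 0.20, limma adjusted p = 0.0453), and *Selenok*, a protein of the endoplasmic reticulum membrane, at 72.5, 71.9 and 73.9 and then at 88.0, 91.2 and 80.7 (log2 difference 0.25, adjusted p = 0.0297). After the length correction *Glrx* (log2 difference 0.28, limma adjusted p = 0.0499), *Glrx3* (0.20, adjusted p = 0.0499) and *Pstk* (0.42, adjusted p = 0.0409) still passed. The other 4 did not. With length and GC content corrected together *Glrx*, *Glrx3* and *Pstk* no longer passed (limma adjusted p = 0.0579, 0.066 and 0.0567). *Selenow* was at 0.06 after the length correction, and at 0.05 after quantile normalization.

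**Figure D4:**
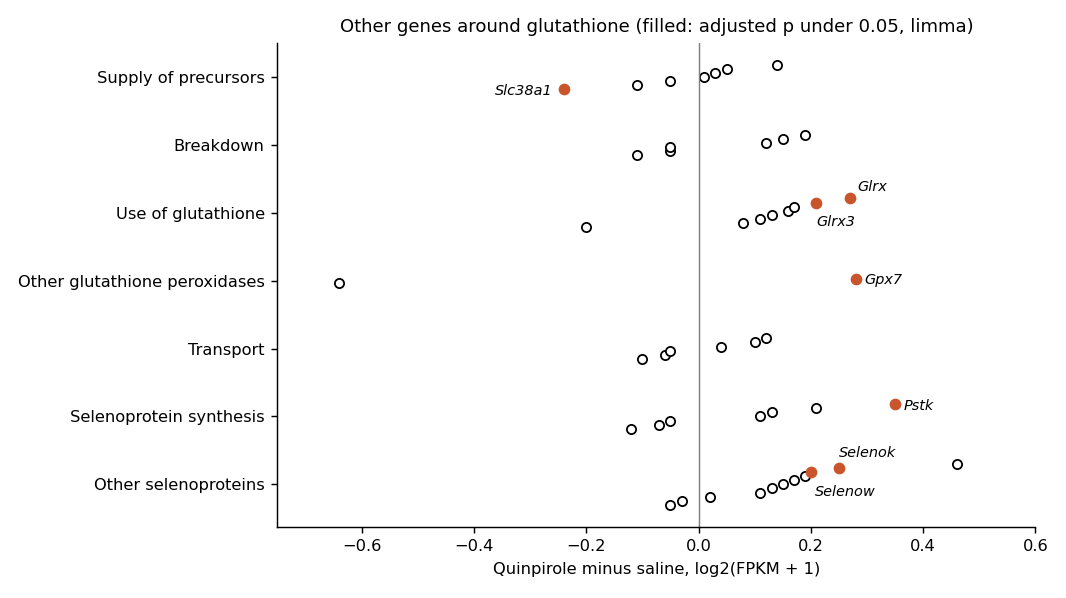
Log2 difference between quinpirole and saline for the 47 tested genes of 7 lists around glutathione, 1 row per list and 1 point per gene, filled and named where the limma adjusted p was under 0.05. *Slc38a1* is the filled point left of 0, the other 6 lie between 0.20 and 0.35, and the open point at -0.64 is *Gpx3*.

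The libraries held an estimated 22400000 to 27600000 fragments. All 10 astrocyte markers examined were present in every library, but *Slc1a2* and *S100b* were low, at 5.15 to 8.55 and 5.01 to 6.18 FPKM, and *Slc1a2*, *Slc4a4* and *Atp1b2*, which encodes ACSA-2, were called lower after quinpirole. The summed astrocyte markers ranged from 1482 to 1640 FPKM after saline and from 1470 to 1500 after quinpirole. Markers of mural and smooth muscle cells summed to 4794 to 5127 FPKM and then to 5146 to 5507, nearly all of it *Acta2* and *Tagln*, with *Rgs5* under 1 FPKM in each library and *Pdgfrb* called lower. Microglial markers summed to 480.2 to 497 FPKM and then to 514 to 550. Neuronal markers summed to 1.09 to 1.27 FPKM after saline and 1.3 to 1.54 after quinpirole, each of them under the filter and so not tested. Endothelial markers summed to 7.13 to 7.34 and then 5.63 to 6.69, most of it *Kdr*, which was not called (limma adjusted p = 0.158). Neither sum overlapped between groups, but the single markers did not all move with their sum. Of all tested genes, 20.0% lay wholly higher and 16.9% wholly lower after quinpirole. Of the oligodendrocyte markers *Mog* was at or near 0 in every library, the sum of 156 to 176 FPKM being almost all *Cnp*. Oligodendrocyte precursor markers summed to 2.07 to 2.67 FPKM and then to 1.7 to 1.93. Choroid plexus markers summed to 27.4 to 28.5 after saline and to at least 28.7 after quinpirole, mostly *Folr1*. *Ttr* in that list went the other way, from a mean of 2.53 to 2.31 FPKM, and neither gene was called. Ependymal markers summed to 119 to 132, almost all of it *Foxj1*, with the others at means of 1.09 and 0.103 FPKM. The red cell markers were not analysed here. The part of these differences in the results for the glutathione genes was not tested.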

How the data were processed

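Poly(A) RNA of 6 libraries of mouse astrocytes (3 saline, 3 quinpirole) was sequenced in paired-end reads. Reads were mapped with TopHat2 to GRCm38, per the submitters' processing notes, and the values the authors deposited are FPKM, in which the fragments of each gene are scaled to its length and to the depth of the library. The program that computed FPKM is not given in the sources used here. The sum over genes differed between libraries, from 401769 to 437164. Symbols were matched for 17090 of 17193 identifiers, and positions and exonic lengths came from GENCODE M21 on GRCm38. The files hold no counts, and the number of fragments per library was inferred from the steps between low FPKM values (60.2% to 68.9% of these lay within 0.1 of a whole fragment).

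Genes with a mean of at least 1 FPKM were tested on log2(FPKM + 1) with limma 3.58.1 in R 4.3.3 (eBayes with trend, two-sided, threshold 0.05 after Benjamini-Hochberg adjustment). The fit was tried on simulated data with independent noise for each gene. Such data hold no trend with length and no effect shared by the genes of a library, so the trial does not cover these. Ratios were compared by two-sided exact permutation tests. The length and GC corrections subtracted a loess fit (span 0.3) per library. The members and lists were chosen with earlier results of these data known. Named genes are the members, list genes past the threshold, and at most 2 further genes per list, those with the highest mean. Markers of each cell type were read as sums, and 1 marker gene is not reported here. Same-numbered saline and quinpirole libraries deviated together no more than others (r = 0.03, -0.07 and -0.10, against -0.10 to 0.15), so the numbers were not taken to pair them. Python 3.11.15 was used for tables and figures.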

Additional observations from a re-analysis of the deposited data

How the results depend on the processing

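The number of genes past the threshold, 1339 as reported, was 633 without the filter on low values, 783 after quantile normalization (36.1% of them higher, against 52.6%), 714 with eBayes without trend, 509 with the length correction, 375 with length and GC corrected together, 2 with the replicate block and 0 with the block and the length correction (limma, 2723 genes at an unadjusted p under 0.05), and 3 (without saline library 2) to 1215 (without saline library 3) when single libraries were left out. Of the members, 4 as reported, 3 passed without the filter, after quantile normalization or without trend (*Gpx4* lost each time), 1 with either the length correction or both corrections, 0 with the replicate block (5 at an unadjusted p under 0.05) and 0 with the block and the length correction (4 unadjusted), and 0 to 4 with libraries left out. Of the genes in the surrounding lists, 7 as reported, 2 passed without the filter, 4 after quantile normalization, 3 without trend, 3 with the length correction, 0 with both corrections, 0 with the block, 0 with the block and the length correction, and 0 to 7 with libraries left out. Signs reversed for *Gclm* with the GC correction (0.00), *Gpx1* with quantile normalization (-0.08), the length correction (-0.03) and the block with the length correction (-0.03), *Gpx4* with quantile normalization (0.00), and *Abcc1* with the length correction (0.05), both corrections (0.06) and the block with the length correction (0.05). They also reversed for *Glul* with median ratio scaling (0.00), quantile normalization (-0.11), the length correction (-0.04), both corrections (-0.04), the block with the length correction (-0.04) and without saline library 1 (-0.02 to 0.03 with single libraries left out). The remaining values of the 18 glutathione and list genes with printed tests kept their direction, 184 of 306 on the same side of the threshold, 107 no longer past it and 1 newly past it. Changes to the filter or the eBayes trend, and the block by itself, leave each log2 difference as it is, so none could reverse there. All 3 ratios kept their sign under each alternative run, which the block could not have changed. The difference for *Gclc* to *Gclm* was -0.0 without saline library 2 (exact permutation p = 0.9), so it had no clear direction there. The labels do not say whether the replicate numbers mark shared mice, so whether the block applies to these libraries is not known. The cause of these changes was not tested.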
